A study of Mus musculus with 18 samples.

Results

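The genes followed here were 10 genes of muscle connective tissue fibroblasts: Pdgfra, Pdgfrb, Osr1, Tcf7l2, Ly6a, Thy1, Dpt, Mgp, Eln and Fbn1. They were chosen by name from general knowledge of these cells, with earlier results of these data known, so the choice was not blind to the data. They are 10 of the 47728 genes in the bulk count tables. All 10 were found there and in both single-cell matrices, and all 10 were among the 17571 genes that passed the filter on low counts. The study compared mouse myogenic progenitors made in culture from pluripotent stem cells (PSC) with muscle progenitors taken from mice. Bulk RNA sequencing covered 5 groups of 3 libraries, and droplet single-cell RNA sequencing covered 1 sample of adult satellite cells and 1 sample of iPax3 cells.

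The groups iPax3 and iPax7 were ES-derived myogenic progenitors. Cells that were Vcam1+ and Flk1- were sorted from embryoid bodies and then expanded for 3 passages with Dox and bFGF. The Emb group held myoblasts of embryos at E10.5 and the Fet group myoblasts of fetuses at E14.5, both of the strain My5Cre Rosa26YFP. The Neo group held satellite cells of hindlimb muscles at postnatal day 3 from Pax7-ZsGreen mice, and the adult single-cell sample came from the tibialis anterior of Pax7-ZsGreen mice aged 3 months. Strain changes together with stage between Emb or Fet and Neo, so the effects of the 2 cannot be told apart there. Each PSC-derived group is named for its induced factor, Pax3 or Pax7. Between PSC-derived and tissue cells, origin changes together with culture in Dox and bFGF and with that factor. These cannot be told apart either. The labels describe the tissue cells as freshly sorted but do not say by which signal, and they do not say whether libraries of a group came from separate animals, embryos or cultures. The p-values therefore measure the spread between these libraries, which may be technical. The spread of each gene was fitted over the libraries of all groups, so a p-value also draws on groups outside its comparison.

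Fibroblasts of muscle connective tissue build the matrix that surrounds muscle fibres and guide muscle patterning in the embryo. They carry the receptors Pdgfra and Pdgfrb, through which platelet-derived growth factors drive the growth and migration of mesenchymal cells. In limb muscle the transcription factors Osr1 and Tcf7l2 mark these fibroblasts, Ly6a (Sca-1) and Thy1 are surface proteins used to sort fibro-adipogenic and stromal cells, and Dpt, Mgp, Eln and Fbn1 encode secreted matrix proteins. None of these genes is restricted to fibroblasts: Pdgfrb also marks mural cells of vessels, Ly6a is also made by endothelial cells, and Tcf7l2 is a Wnt effector active in many cell types.

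RefSeq promoter sequence (GRCm38.p6) matched 4 of the 10 genes. That of Fbn1 lay wholly within an untranslated region of a GENCODE M21 transcript and is not shown. The other 3 are shown because they were the windows that remained, and their levels played no part in that choice. In the bulk libraries Tcf7l2 gave no call, Pdgfra was high in tissue from the embryo on, and Dpt rose between embryo and fetus. Each line gives the 250 bases before the RefSeq start site, 5′ to 3′ along the gene, and capitals mark matches to the GC box GGGCGG on either strand. The window of Pdgfra is chr5:75152001-75152250 on the plus strand, that of Tcf7l2 is chr19:55741560-55741809 on the plus strand, and that of Dpt is chr1:164796413-164796662 on the plus strand. The GENCODE start of Dpt lies 19 bases upstream of the RefSeq start, inside the window, and those of Pdgfra and Tcf7l2 lie 41 and 10 bases downstream.
Pdgfra: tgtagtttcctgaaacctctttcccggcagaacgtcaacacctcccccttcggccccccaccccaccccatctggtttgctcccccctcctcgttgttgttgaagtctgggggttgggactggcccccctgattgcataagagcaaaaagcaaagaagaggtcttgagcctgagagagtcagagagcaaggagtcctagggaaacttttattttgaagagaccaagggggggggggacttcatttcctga
Tcf7l2: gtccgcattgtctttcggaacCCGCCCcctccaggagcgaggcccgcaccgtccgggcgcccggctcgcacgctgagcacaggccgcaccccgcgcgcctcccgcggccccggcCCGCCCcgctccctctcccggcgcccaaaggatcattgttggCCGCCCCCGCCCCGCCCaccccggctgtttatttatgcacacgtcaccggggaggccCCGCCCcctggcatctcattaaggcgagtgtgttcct
Dpt: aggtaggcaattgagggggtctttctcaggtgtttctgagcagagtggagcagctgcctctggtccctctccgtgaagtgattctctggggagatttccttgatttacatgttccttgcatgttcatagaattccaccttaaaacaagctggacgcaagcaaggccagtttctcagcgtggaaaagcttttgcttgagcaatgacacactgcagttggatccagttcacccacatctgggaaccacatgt
Bases G and C made up 72.8% of the Tcf7l2 window, 54.4% of the Pdgfra window and 48.8% of the Dpt window, against a median of 52.4% over 32851 windows of the same length. The Tcf7l2 window held 6 matches to GGGCGG, all on the strand opposite to the gene, with 2 of them sharing a base, and the other 2 windows held none. At least 1 such match was present in 32.7% of all windows. No other motif searched was found on either strand of these 3 windows. The TATA box, spelled TATAAA, occurs in 12.4% of all windows, the CCAAT box in 33.8% and the core of the TCF/LEF site, spelled CTTTGA, in 13.8%.

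Levels in bulk are counts per library scaled to CPM, that is per 1e6 counts, and normalised by the TMM method, given as mean ± SD over 3 libraries. A change was called at an adjusted p under 0.05 in edgeR's quasi-likelihood test over all 17571 genes, and every log2 fold change carries its standard error (SE). Total counts ran from 516504 in Fet replicate 1 to 56275318 in iPax3 replicate 1. The library labelled iPax7 replicate 1 stood apart: it held 550 CPM of the pluripotency factor Pou5f1, 0.989 CPM of Pax7 and 1.10 CPM of Myf5, where the other 2 iPax7 libraries held 111 and 349 CPM of Pax7. The Neo libraries held 0.495, 4.08 and 5.12 CPM of Pax7, the defining gene of satellite cells. In bulk RNA, fewer cells of a type and less RNA per cell cannot be told apart.

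**Figure D1:**
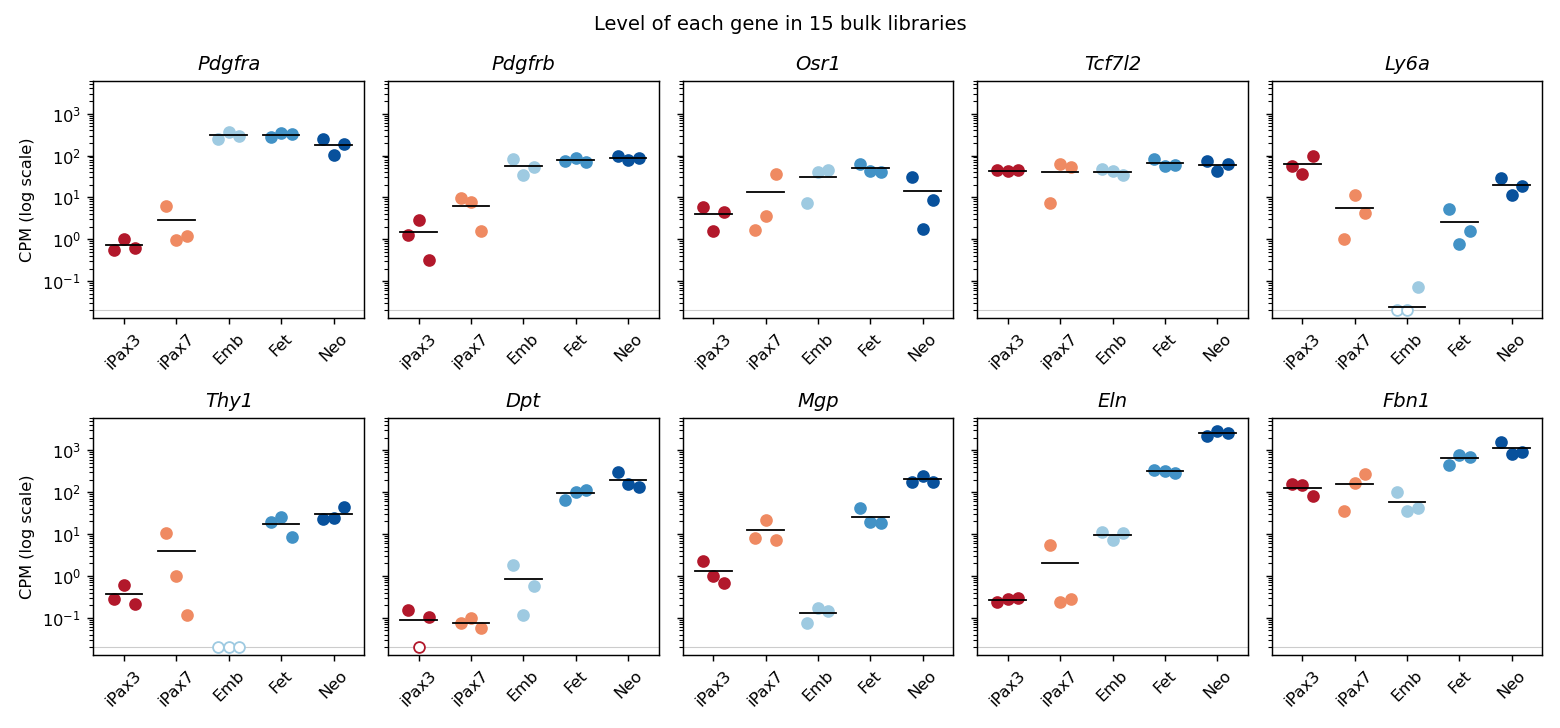
Level of each gene in CPM (log axis) in the 3 libraries of each of the 5 bulk groups; points are libraries in replicate order from left to right, black bars are group means, and open points on the grey line are libraries with 0 counts. Pdgfra and Pdgfrb separate the PSC-derived from the tissue-derived libraries, Tcf7l2 lies between 35 and 83 CPM in 14 of 15 libraries, and Thy1, Dpt, Mgp and Eln lie lowest among the tissue groups in Emb; from Fet to Neo Mgp alone passed the test.

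Set against the mean of the 3 tissue stages, the PSC-derived progenitors had far less RNA of both receptors and of the matrix genes Dpt and Eln, and more of Ly6a. The Ly6a difference did not hold at every stage. For iPax7 it passed neither against Fet (log2 1.55, SE 1.04, adjusted p = 0.505) nor against Neo (log2 -1.84, SE 0.93, adjusted p = 0.177). Of the 10 genes, 7 passed the test, 6 of them lower and 1 higher in PSC-derived cells, beside 28.1% of all genes tested (11.7% lower and 16.4% higher). Pdgfra was 178-fold lower, Pdgfrb 23.3-fold lower, Dpt 278-fold lower and Eln 261-fold lower. Without iPax7 replicate 1, the library described above, Pdgfra moved from log2 -7.48 to -8.16 and Eln from -8.03 to -9.50. The median log2 fold change of the 10 genes was -1.60, beside 0.29 over all genes tested. Calls for Mgp (log2 -1.15, SE 0.40, adjusted p = 0.0399) and Fbn1 (log2 -1.29, SE 0.37, adjusted p = 0.0164) were not stable. The call of Mgp was lost in 10 of the 15 omissions of a single library, which were iPax3 replicate 2 or 3, iPax7 replicate 1 or 3, Emb replicate 2 or 3, Fet replicate 1 and each Neo library (adjusted p up to 0.104). That of Fbn1 was lost without iPax3 replicate 3 (adjusted p = 0.0573), and both were lost without the filter on low counts (adjusted p = 0.0527 and 0.0809). When Neo was left out and tissue was the mean of Emb and Fet, Mgp stood at log2 1.10 (adjusted p = 0.214) and Fbn1 at -0.46 (adjusted p = 0.462), while Osr1 passed (log2 -2.39, adjusted p = 0.0338) and 6 genes were called in all. Under that setting Dpt stood at -6.66, Eln at -6.22 and Ly6a at 6.38, in place of -8.12, -8.03 and 4.20, and all 3 still passed. Leaving out iPax7 replicate 1 as well kept the number at 6.

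The receptors are described first. Pdgfra stood at 0.560, 1.02 and 0.632 CPM in the iPax3 libraries and at 6.30, 0.946 and 1.2 CPM in the iPax7 libraries. The Emb libraries held 253, 356 and 300 CPM, the Fet libraries 277, 338 and 333 CPM, and the Neo libraries 254, 103 and 186 CPM. Every tissue library was above every PSC-derived library, and the highest PSC-derived value was that of iPax7 replicate 1. The means were 303 ± 51.7 CPM in Emb, 316 ± 34.1 in Fet and 181 ± 75.3 in Neo, and no step between stages passed the test (adjusted p = 0.972 for Fet against Emb and 0.443 for Neo against Fet). Every Neo library lay below every Fet library, while Emb overlapped both. From iPax3 to Emb the fitted difference was log2 -8.67 (SE 0.73, adjusted p = 2.71e-06), and from iPax7 to Emb it was -6.74 (SE 0.67, adjusted p = 1.95e-05), or -8.14 without iPax7 replicate 1. Exons of Pdgfra (chromosome 5, 75152292 to 75198215, GRCm38) overlap those of 2 predicted genes on the opposite strand and of the microRNA gene Mir7025, and the strand setting of the counting is not given in the sources used here.

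Pdgfrb, on chromosome 18, showed the same separation at a lower height. Its libraries stood at 1.30, 2.91 and 0.316 CPM in iPax3 and at 9.75, 7.70 and 1.59 CPM in iPax7. They stood at 80.8, 34.8 and 53.4 CPM in Emb, at 72.6, 88.9 and 71.2 in Fet, and at 96.8, 77.5 and 85.8 in Neo. No PSC-derived library reached the lowest tissue library. The difference was log2 -5.22 (SE 0.78, adjusted p = 0.000319) for iPax3 against Emb, or -6.07 without iPax3 replicate 2, and -3.15 (SE 0.70, adjusted p = 0.00888) for iPax7 against Emb. Between stages Pdgfrb did not pass the test, with means of 56.4 ± 23.1, 77.6 ± 9.84 and 86.7 ± 9.70 CPM in Emb, Fet and Neo. Across the 15 libraries the log2 levels of the 2 receptors had a Pearson correlation of 0.938, a description over libraries that share group and depth.

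The 4 PDGF ligands, which bind these receptors, were counted from a fixed list. In PSC-derived cells 1 of 4 was higher, Pdgfc (log2 1.76, SE 0.51, adjusted p = 0.0167), and 1 was lower, Pdgfa (log2 -0.91, SE 0.31, adjusted p = 0.0355). Over all genes tested 16.4% were higher and 11.7% lower. Pdgfb and Pdgfd were higher in Fet than in Emb (log2 7.84 and 5.59, SE 1.74 and 1.39, adjusted p = 0.0195 and 0.0348), beside 2.89% of all genes tested.

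The transcription factors gave no call in any of the 11 comparisons with all libraries. Osr1, a zinc finger regulator of lateral plate and limb connective tissue, was the more variable of them. The iPax3 libraries stood at 5.93, 1.60 and 4.45 CPM, those of iPax7 at 1.69, 3.65 and 35.3, those of Emb at 7.42, 40.7 and 44.3, those of Fet at 64.0, 43.3 and 40.2, and those of Neo at 31.3, 1.8 and 8.73. The Fet libraries lay together, while iPax7, Emb and Neo each had 1 library far from the other 2, and these groups overlapped. Its smallest adjusted p was 0.0645, for PSC-derived against tissue cells (log2 -1.91, SE 0.74). That comparison passed without iPax7 replicate 3 (log2 -3.04, adjusted p = 0.00851), without Emb replicate 1 (adjusted p = 0.0426), without Neo replicate 2 (adjusted p = 0.0422) and without the filter on low counts (adjusted p = 0.0488). For iPax3 it passed against Emb without Emb replicate 1 (adjusted p = 0.0482), and against Fet without iPax7 replicate 1 or 3 (adjusted p = 0.0397 and 0.0406) and without the filter (adjusted p = 0.0457). At an unadjusted p under 0.05 it passed 3 of 11 comparisons, and DESeq2 called 3.

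Tcf7l2, the Wnt pathway effector that marks connective tissue fibroblasts in limb muscle, had group means within a narrow range. The iPax3 mean was 43.8 ± 1.26 CPM, the iPax7 mean 41.0 ± 29.5, the Emb mean 41.3 ± 5.87, the Fet mean 65.8 ± 15 and the Neo mean 59.3 ± 16.4. The 3 iPax3 libraries stood at 45, 42.5 and 43.9 CPM and the 3 Emb libraries at 46.7, 42.1 and 35 CPM, so the 2 groups overlapped. The 3 Fet libraries, at 83.0, 55.2 and 59.2 CPM, lay above every iPax3 and Emb library. The iPax7 libraries stood at 7.51, 63.0 and 52.5 CPM, and the low value was again replicate 1. The smallest unadjusted p over 11 comparisons was 0.232, and DESeq2 called 0. A missed threshold does not show equal levels: with the SE of 0.54 for iPax3 against Emb, the difference was log2 0.08. Of 4 paralogs of Osr1 and Tcf7l2 taken from a fixed list, Osr2 (log2 -6.47, SE 0.99, adjusted p = 0.000181) and Lef1 (log2 -2.70, SE 0.50, adjusted p = 0.000813) were lower in PSC-derived cells than in the mean of the tissue stages, and the other 2 did not pass. Over all genes tested 11.7% were lower. By single stages, Osr2 did not pass against Emb for iPax3 (log2 -0.94, adjusted p = 0.659) or iPax7 (log2 -0.69, adjusted p = 0.777). Lef1 did not pass against Fet for iPax3 or iPax7 (adjusted p = 0.123 and 0.274).

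Ly6a had its highest mean in iPax3. It encodes a small GPI-anchored protein of the Ly6 cluster on chromosome 15 (74994877 to 74998031, minus strand). The iPax3 libraries held 57.5, 36.6 and 99 CPM, the Neo libraries 29.8, 11.4 and 18.4, the iPax7 libraries 0.989, 11.5 and 4.15, and the Fet libraries 5.19, 0.792 and 1.57. In Emb, 1 count was found over the 3 libraries. Every iPax3 library was above every Neo library, yet that neighbouring pair did not pass the test (log2 1.69, SE 0.93, adjusted p = 0.199). Against Fet the iPax3 level was 34.1-fold higher (log2 5.09, SE 1.14, adjusted p = 0.0103), a call that was lost without iPax3 replicate 3, Fet replicate 2 or Fet replicate 3 (adjusted p up to 0.0789) and that stood at log2 5.80 without Fet replicate 1. Against Emb the ratio of summed counts was 2756 for iPax3, with a 95% exact interval of 494 to 108851 that covers counting error only (adjusted p = 0.000128). Between the PSC-derived groups iPax7 was 11.6-fold lower than iPax3 without overlap, which did not pass in edgeR (log2 -3.54, SE 0.997, adjusted p = 0.332) and passed in DESeq2 (adjusted p = 0.00751).

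Of 7 other genes of the Ly6 family listed, 3 passed the filter on low counts. Ly6c1 (log2 3.33, SE 0.81, adjusted p = 0.0069) and Ly6e (log2 2.65, SE 0.55, adjusted p = 0.00233) were higher in PSC-derived cells than in the mean of the tissue stages, and Ly6g6c did not pass (adjusted p = 0.31). By single stages Ly6c1 was lower in iPax7 than in Neo (log2 -4.74, SE 1.2, adjusted p = 0.0151), and for iPax3 against Neo it did not pass (log2 -0.19, SE 1.02). Some members of this family are close to each other in sequence. How reads that map to several places were counted is not given in the sources used here, so the split between such members is uncertain.

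Thy1, a GPI-anchored glycoprotein of stromal cells and neurons, was not counted once in the 3 Emb libraries. It stood at 19.0, 26.2 and 8.34 CPM in Fet and at 23.1, 23.8 and 44.5 CPM in Neo. The Fet mean was 262 times and the Neo mean 447 times a floor of 3 counts over the Emb group. Both passed the test against Emb (adjusted p = 0.00935 and 0.00185). These ratios to the floor leave out the error of the Fet and Neo means. In PSC-derived libraries Thy1 was low apart from 1 library: iPax3 stood at 0.280, 0.596 and 0.211 CPM and iPax7 at 10.8, 0.980 and 0.114 CPM, with replicate 1 the high one. The iPax3 level lay below Neo (log2 -6.37, SE 1.55, adjusted p = 0.00986), and this call was lost without iPax3 replicate 1 or 3 (adjusted p up to 0.0548). The call below Fet (adjusted p = 0.032) was lost in 7 of the omissions of a single library: each iPax3 library, each Fet library and Neo replicate 3 (adjusted p up to 0.152). With Emb at 0, Thy1 did not pass the test between PSC-derived cells and the mean of the tissue stages (log2 -0.27, SE 0.58, adjusted p = 0.776).

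**Figure D2:**
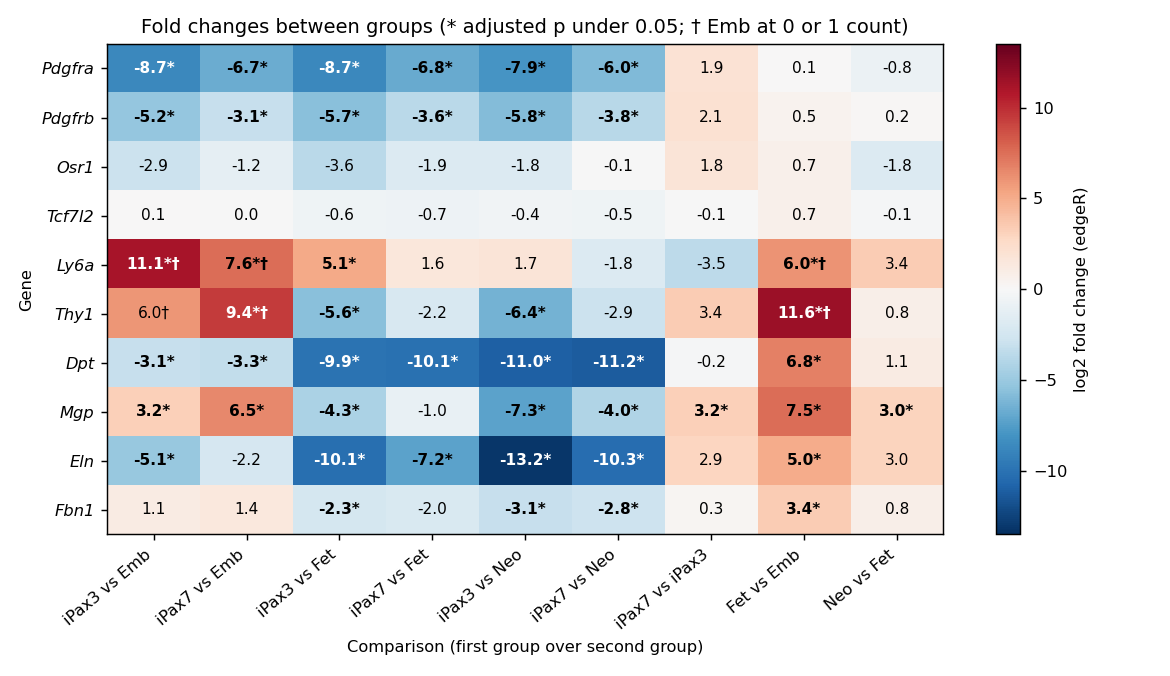
Fitted log2 fold change (edgeR) of each gene in 9 of the comparisons, first group over second group; an asterisk marks an adjusted p under 0.05, and a dagger marks fits against Emb where Ly6a had 1 count and Thy1 had 0, whose fitted size is no bound. Blue fills the rows of both receptors in all 6 comparisons of a PSC-derived group with a stage, Ly6a is red in the iPax3 columns, and Tcf7l2 has no asterisk.

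The matrix genes split the embryonic from the later stages. From Emb to Fet 6 of the 10 genes passed the test and all 6 were higher in Fet, beside 3.65% of all genes tested (2.89% higher): Dpt, Mgp, Eln, Fbn1, Ly6a and Thy1. The call of Ly6a was lost without Emb replicate 2, Fet replicate 1 or Fet replicate 3 (adjusted p up to 0.0882). The receptors and the transcription factors did not pass. From Emb to Neo the same number passed, 6 of 10, beside 20.1% of all genes (11.7% higher), and these were the 6 genes just named. The median log2 fold change of the 10 genes was 4.23 from Emb to Fet, beside 0.18 over all genes tested.

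Dpt encodes dermatopontin, which binds decorin and organises collagen fibrils. The Emb libraries stood at 1.85, 0.114 and 0.588 CPM, the Fet libraries at 65.7, 104 and 114 CPM, and the Neo libraries at 309, 158 and 133 CPM. In the PSC-derived groups it was near 0, with 13 counts over the 3 iPax3 libraries and 6 over the 3 iPax7 libraries, or 0.0876 ± 0.0802 and 0.0772 ± 0.0225 CPM. The rise from Emb to Fet was 113-fold (log2 6.82, SE 0.88, adjusted p = 0.000343), or log2 8.11 without Emb replicate 1. The iPax3 level was also below Emb (log2 -3.12, SE 0.84, adjusted p = 0.0184), a call carried by 1 library: without Emb replicate 1 the value was -1.81 (adjusted p = 0.128). That call was also lost without iPax3 replicate 2 or 3, and the same call for iPax7 (adjusted p = 0.0273) was lost without any 1 of the iPax7 libraries or without Emb replicate 1 (adjusted p up to 0.123).

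Eln encodes tropoelastin, the monomer that is crosslinked into elastic fibres. It stood at 11.5, 7.38 and 10.4 CPM in Emb, at 334, 316 and 295 in Fet, and at 2240, 2823 and 2568 in Neo. The groups did not overlap and their spread was small, with an SD of 292 on a mean of 2544 CPM in Neo. Fet was 32.3-fold above Emb (log2 5.01, SE 0.83, adjusted p = 0.00392). Neo was 8.08-fold above Fet, at an adjusted p of 0.0502 (log2 3.02, SE 0.76). With RLE size factors the adjusted p was 0.0453, and in DESeq2 it was 0.00184. Without iPax7 replicate 1, a library of neither group that enters the fitted spread, the edgeR value was 1.74e-06. The iPax3 libraries held 0.245, 0.286 and 0.290 CPM and the iPax7 libraries 5.61, 0.236 and 0.285 CPM, so 5 of 6 PSC-derived libraries lay below 0.3 CPM. Against Emb, Eln was lower in iPax3 (log2 -5.13, SE 0.88, adjusted p = 0.00136), and for iPax7 the value was -2.23 (SE 0.76, adjusted p = 0.0617), or -5.20 (adjusted p = 1.01e-07) without iPax7 replicate 1. Exons of Eln overlap those of Gm30003 on the opposite strand.

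Mgp, matrix Gla protein, is an inhibitor of calcification. It stood at 0.0773, 0.172 and 0.147 CPM in Emb, which rests on 6 counts in all, at 41.5, 19.3 and 17.9 in Fet, and at 177, 248 and 179 in Neo. It was the 1 gene of the 10 that passed from Fet to Neo, beside 2.37% of all genes, or 1.37% higher (log2 3.00, SE 0.57, adjusted p = 0.0106), and it did not pass without Fet replicate 2, Fet replicate 3 or Neo replicate 2 (adjusted p up to 0.0909). It was also the 1 gene of the 10 that passed between the PSC-derived groups, beside 0.074% of all genes (0.0569% higher). The iPax7 libraries held 8.10, 21.8 and 7.06 CPM and the iPax3 libraries 2.24, 1.001 and 0.685 CPM, without overlap (log2 3.22, SE 0.57, adjusted p = 0.044). That call stood close to the threshold and was lost in 11 of the 15 omissions of a single library (adjusted p up to 0.345), with values of log2 2.51 without iPax7 replicate 2 and 3.85 without iPax3 replicate 1. It held without iPax7 replicate 1, iPax7 replicate 3, Emb replicate 2 or Emb replicate 3. Both PSC-derived groups were above Emb, iPax3 by log2 3.23 (SE 0.68, adjusted p = 0.00439) and iPax7 by 6.46 (SE 0.72, adjusted p = 5.42e-05). These values were 2.62 without iPax3 replicate 1 and 5.77 without iPax7 replicate 2.

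Fbn1 encodes fibrillin-1, the main protein of the microfibrils on which elastin is laid down, and of the matrix genes it had the highest level in PSC-derived cells. It stood at 156, 148 and 82.8 CPM in iPax3, at 34.6, 170 and 270 in iPax7, and at 101, 36.6 and 40.8 in Emb. Those 3 groups overlapped, and neither PSC-derived group passed the test against Emb (adjusted p = 0.182 for iPax3 and 0.103 for iPax7); without iPax7 replicate 1, the lowest of the 6, iPax7 was above Emb (log2 1.90, adjusted p = 0.00944), as it was without Emb replicate 1 (adjusted p = 0.0323). The Fet libraries held 457, 775 and 710 CPM and the Neo libraries 1603, 806 and 924 CPM. Fet was 10.9-fold above Emb (log2 3.45, SE 0.61, adjusted p = 0.0053), or log2 4.07 without Emb replicate 1, and 5.03-fold above iPax3 (adjusted p = 0.0199), and the second of these calls was lost without any 1 of the iPax3 libraries or without Fet replicate 2 or 3 (adjusted p up to 0.126) and without the filter on low counts (adjusted p = 0.102). Exons of Fbn1 overlap those of Gm9913 on the opposite strand.

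Counted by single stages, the PSC-derived groups were lower than Emb in fewer of the 10 genes than they were lower than Neo. Against Emb, iPax3 had 2 genes higher and 4 lower, beside 17% of all genes called (9.34% higher and 7.64% lower), and iPax7 had 3 higher and 3 lower, beside 14% (8.51% higher and 5.54% lower). Against Fet, iPax3 had 1 higher and 7 lower, beside 8.53% of all genes (2.85% higher and 5.68% lower), and iPax7 had 4 lower, beside 3.7% (2.75% lower). Against Neo, iPax3 had 7 lower, beside 22.6% of all genes (11.3% lower), and iPax7 had 6 lower, beside 18.2% (8.37% lower). These comparisons share their iPax3 and iPax7 libraries, and the difference between the counts was not tested.

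Per kilobase of exon the leading gene differed between groups. On the scale of reads per kilobase and 1e6 counts (RPKM, with GENCODE M21 exon lengths), Pdgfra led in Emb at 30.3 ± 5.15, followed by Osr1 at 14.9 ± 9.84 and Pdgfrb at 10.3 ± 4.22. In Fet, Dpt (54.8 ± 14.7) and Fbn1 (53.4 ± 13.9) stood above Eln (38.9 ± 2.39) and Pdgfra (31.5 ± 3.41). In Neo the order was Eln at 314 ± 36.0, Mgp at 170 ± 34.2, Dpt at 116 ± 55.2 and Fbn1 at 91.6 ± 35.5 RPKM. In iPax3 it was Ly6a at 53.4 ± 26.4, Fbn1 at 10.6 ± 3.3 and Tcf7l2 at 4.99 ± 0.144 RPKM. In iPax7 it was Fbn1 at 13 ± 9.74 and Mgp at 10.4 ± 6.91 RPKM. A receptor thus led the embryonic group, matrix genes the later ones, and a surface gene the iPax3 group.

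Other fibroblast genes formed a fixed list of 20, among them collagens, proteoglycans and regulators. In PSC-derived cells 17 of 20 were lower and 1, Gsn, was higher, beside 11.7% lower and 16.4% higher over all genes tested. The median log2 fold change of the 20 was -5.49, beside 0.29 over all genes tested. Lum, a keratan sulfate proteoglycan, was lower by log2 -8.96 (SE 0.34, adjusted p = 9.83e-11), and Col1a2, a chain of collagen I, by -5.31 (SE 0.38, adjusted p = 9.22e-08). From Emb to Fet 13 of 20 were higher, beside 2.89% of all genes tested. Among these 13 were Lox, which crosslinks collagen and elastin (log2 4.43, SE 0.61, adjusted p = 0.000629), and Dcn, or decorin (log2 6.13, SE 0.87, adjusted p = 0.000937). The receptors did not pass over that step. For iPax7 against Emb, where both receptors were lower, 5 of 20 were lower and 3, Ogn, Gsn and Lox, were higher. The median of the 20 was log2 -0.73, and over all genes tested 5.54% were lower and 8.51% higher. Between iPax7 and iPax3 1 of 20 passed, Col1a2, higher in iPax7 (log2 4.15, SE 0.52, adjusted p = 0.00496), beside 0.0569% of all genes higher. Summed over the 20 genes, iPax3 libraries held 372 to 978 CPM, iPax7 libraries 1974 to 3197, Emb libraries 3457 to 3915, Fet libraries 37952 to 41886 and Neo libraries 40906 to 120686.

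Genes of elastic fibres other than Eln and Fbn1 formed a fixed list of 15. In PSC-derived cells 9 were lower and 1 was higher, beside 11.7% and 16.4% of all genes tested. The higher gene was Ltbp1, a latent TGF-beta binding protein (log2 1.34, SE 0.30, adjusted p = 0.00336). Lower genes included the microfibril components Mfap4 (log2 -5.80, SE 0.48, adjusted p = 4.25e-07) and Mfap5 (log2 -6.08, SE 0.92, adjusted p = 0.000196) and the fibrillin Fbn2 (log2 -5.08, SE 0.53, adjusted p = 8.82e-06). From Emb to Fet, where Eln and Fbn1 both rose, 2 of 15 were higher, beside 2.89% of all genes tested. These 2 were Ltbp3 (log2 3.25, SE 0.52, adjusted p = 0.00205) and Ltbp4 (log2 3.53, SE 0.83, adjusted p = 0.0257). From Fet to Neo 1 of 15 passed, Fbln1, which was lower (log2 -1.32, SE 0.32, adjusted p = 0.0368), beside 2.37% of all genes called in either direction.

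Markers of other cell types also differed between PSC-derived and tissue cells and between stages. In PSC-derived cells 11 of 12 endothelial, 4 of 5 tendon, 6 of 7 cartilage, 5 of 9 mural and 4 of 8 immune markers were lower, and 1 mural marker was higher. Over all genes tested 11.7% were lower and 16.4% higher. Among the lower markers Emcn stood at log2 -8.67, Kera at -8.22 and Tnmd at -8.20, beside -8.12 for Dpt and -8.03 for Eln. Summed over 12 endothelial markers, Emb libraries held 32.6 to 71.8 CPM, Fet libraries 280 to 645, Neo libraries 2893 to 3711, iPax3 libraries 24.1 to 31.5 and iPax7 libraries 29.6 to 178, with Emcn at 0 in iPax7. For 5 tendon markers the Emb range was 35 to 131 CPM, the Fet range 268 to 339, the Neo range 729 to 2181, the iPax3 range 10.8 to 14.9 and the iPax7 range 7.91 to 24.3. For 8 immune markers the Emb range was 0.147 to 5.10 CPM, with Cd3e at 0, the Fet range 34.6 to 73.3 and the Neo range 135 to 442. In PSC-derived libraries the immune sum was 2.80 to 4.74 CPM for iPax3, with S100a8 and Cd3e at 0, and 2.28 to 31.3 for iPax7, with Ptprc and S100a8 at 0. Mural markers (9 genes) summed to 135 to 238 CPM at the Emb stage, with Higd1b at 0, then 482 to 643 for Fet, 1032 to 1727 for Neo, 112 to 401 for iPax3 and 370 to 921 for iPax7, with Higd1b at 0 there too. Cartilage markers (7 genes) summed to 869 to 1229, 1835 to 4072, 3396 to 3959, 38.0 to 120 and 16.8 to 35.6 CPM in the same order. Myogenic markers (12 genes) summed to 380 to 1226 CPM for Emb, 764 to 1127 for Fet, 276 to 399 for Neo, 1025 to 1596 for iPax3 and 58.8 to 1894 for iPax7. The part of any of these cells in the levels of the 10 genes was not tested.

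The genes whose log2 levels followed each of the 10 most closely over the 15 libraries are given as a description. They were Hoxc4 (r = 0.988) and Runx1t1 (0.987) for Pdgfra, Cthrc1 (0.971) and Megf6 (0.968) for Pdgfrb, and Lsamp (0.951) and Rtl1 (0.880) for Osr1. For Tcf7l2 they were Dab2 (0.941) and Gpc6 (0.930), for Ly6a Plec (0.961) and Vim (0.945), and for Thy1 Il2rg (0.960) and Mmrn2 (0.957). For the matrix genes they were Fosb (0.988) and Emcn (0.980) with Dpt, Srpx2 (0.961) and Mcam (0.952) with Mgp, Col1a1 (0.981) and Thbs4 (0.977) with Eln, and Cygb (0.967) and Scn7a (0.964) with Fbn1. Among the 10 themselves, Dpt and Eln had the highest correlation (0.952), and Ly6a and Pdgfra the lowest (-0.596). Libraries of 1 group share their source, so these values rest mostly on the 5 groups.

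In single cells the same genes were read as UMIs, 1 for each captured RNA molecule, summed over the cells of a sample and given per 1e6 UMIs (CPM). The adult sample held 579 cells with a median of 10765 UMIs and the iPax3 sample 2931 cells with a median of 11716 UMIs. Each is 1 sample, so no test is possible, and the 95% exact intervals cover counting error only. The 2 sets of cells shared 1 barcode. Another matrix, labelled as a second iPax3 sample, held 2 sets of barcodes marked by suffix: 1 set contained 577 of the 579 adult barcodes, and the other contained all 2931 iPax3 barcodes. It was therefore not used as a replicate.

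Of the 10 genes, 9 were lower in iPax3 cells than in adult cells with intervals that did not overlap, and 1, Tcf7l2, was higher. The share of all genes with such a separation was not computed, so these counts cannot be read as particular to the 10 genes. Tcf7l2 stood at 40.7 CPM (38.8 to 42.7) in iPax3 cells and 16.6 CPM (13.9 to 19.7) in adult cells, a ratio of 2.46 (2.06 to 2.96). Dpt and Eln had 0 UMIs in the iPax3 cells, and the exact interval for the share of cells with a UMI reached up to 0.126%. In adult cells Dpt stood at 102 CPM and Eln at 16.8 CPM, which is 1411 and 233 times a floor of 3 UMIs in the iPax3 sample. These ratios to the floor leave out the counting error of the adult levels. The exact intervals of the ratio of adult to iPax3 levels began at 1145 for Dpt and 187 for Eln. Thy1 was found as 3 UMIs and Pdgfra as 2 UMIs among the iPax3 cells, and the adult levels were 730 times (248 to 3554) and 121 times (31.7 to 1030) as high. Mgp was 2.55 CPM in iPax3 cells and 332 CPM in adult cells, and Pdgfrb 0.288 and 17.3 CPM.

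Ly6a and Fbn1, like Tcf7l2, were above 10 CPM in both samples. Ly6a stood at 99.5 CPM (96.5 to 103) in iPax3 cells and 743 CPM (725 to 763) in adult cells, and 46.2% and 97.9% of cells had at least 1 UMI. With every cell thinned to 3000 UMIs the shares were 17.5% and 90.2%. Fbn1 stood at 12.6 CPM (11.5 to 13.7) in iPax3 cells and 65.8 CPM in adult cells. Osr1 was sparse in both, with 22 UMIs among iPax3 cells and 13 among adult cells.

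**Figure D3:**
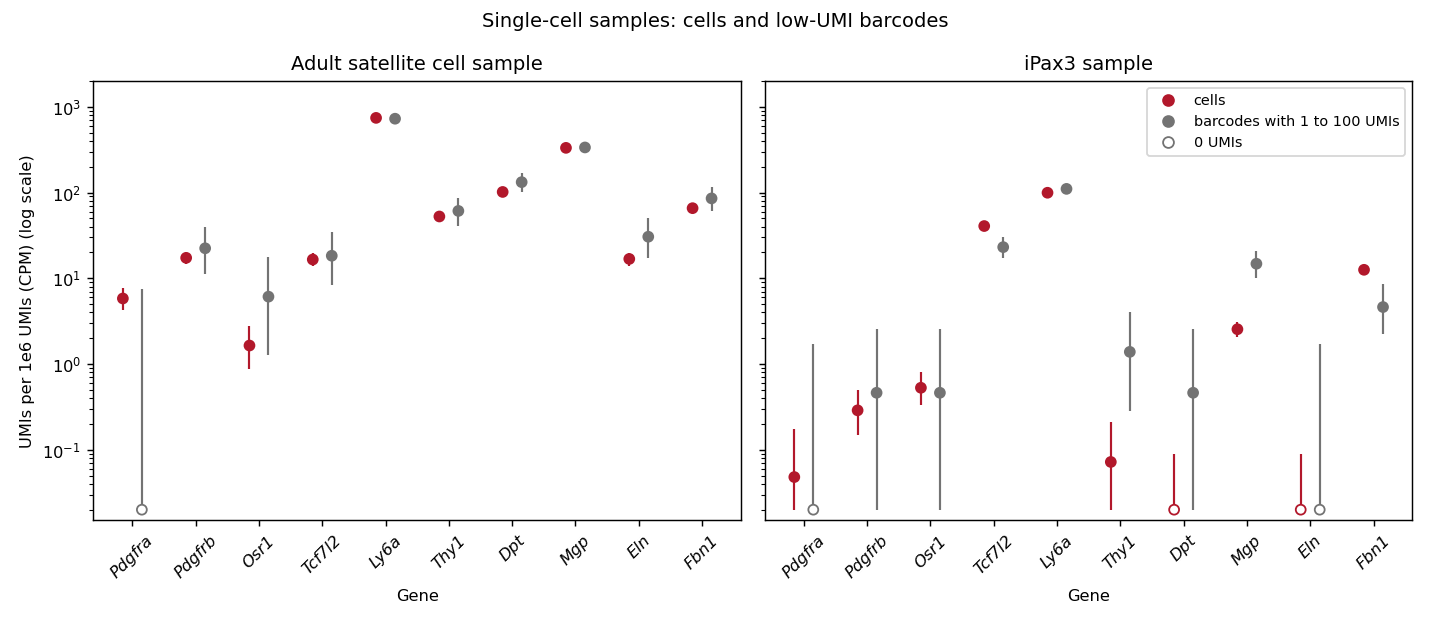
UMIs per 1e6 UMIs (CPM, log axis) of each gene in the adult satellite cell sample and the iPax3 sample, in cells (red) and in barcodes with 1 to 100 UMIs (grey); lines are 95% exact Poisson intervals, cut off at the bottom where they reach 0, and open points are 0 UMIs. In the adult sample red and grey points lie side by side for Ly6a and Mgp, at 743 and 727 and at 332 and 336 CPM, and in the iPax3 sample Tcf7l2 and Fbn1 are higher in cells.

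Barcodes with 1 to 100 UMIs, which hold free RNA in place of whole cells, gave a measure of background. In the adult sample they carried the genes at nearly the level of the cells: Ly6a at 727 CPM beside 743 in cells, Mgp at 336 beside 332, Dpt at 132 beside 102, Thy1 at 61.1 beside 52.6, Fbn1 at 85.5 beside 65.8 and Tcf7l2 at 18.3 beside 16.6. The fibroblast gene Dcn behaved alike, at 1049 beside 858 CPM, and so did Pax7, at 179 beside 146 CPM. Pdgfra had 0 UMIs in these barcodes (upper limit 7.51 CPM) and 5.82 CPM (4.26 to 7.76) in cells, so a difference was not detectable at this depth. Free RNA can come from the same cells, so like levels cannot tell background from RNA held in the cells. Summed adult levels of the 10 genes, and the adult shares of cells with a UMI, may include background. The size of that part was not tested. In the iPax3 sample Tcf7l2 (40.7 beside 23.1 CPM) and Fbn1 (12.6 beside 4.62 CPM) were higher in cells than in these barcodes, Ly6a was alike (99.5 beside 110 CPM), and Mgp was lower in cells (2.55 beside 14.8 CPM).

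Within the adult sample, cells were clustered without the 10 genes, giving 8 clusters. Cluster 6, with 38 cells or 6.56% of the sample, was led by Ccl11, Plac9b, Thbs4, Col1a2, Lum, Gsn and Dcn. It is called fibroblast-like here from the fixed markers Dcn, Lum, Col1a1, Col3a1 and Pi16, which summed to 6766 CPM there and 1108 CPM in all other cells. Tendon markers were also higher in it, at 323 beside 52.6 CPM. As a description without a test, Pdgfra stood at 48.0 CPM (30.4 to 72.0) in this cluster, against 0 to 4.92 CPM in the other 7. Dpt stood at 246 CPM (204 to 295) against 60.9 to 106, Mgp at 899 CPM (816 to 988) against 268 to 376, and Fbn1 at 165 CPM (130 to 205) against 50.8 to 67.6. The intervals of these 4 genes in cluster 6 overlapped those of no other cluster. Thy1 (113 CPM, 84.6 to 147) and Pdgfrb (48.0 CPM, 30.4 to 72.0) also had their highest level there, but their intervals overlapped those of cluster 3 (41.8 to 93.8 and 8.5 to 38.8 CPM). The interval of Pdgfrb also overlapped that of cluster 4, at 20.3 CPM (9.74 to 37.3).

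Ly6a had a different top cluster. It was highest in cluster 4, at 1454 CPM (1350 to 1565), 51 cells called endothelial-like because 12 endothelial markers summed to 2230 CPM there and 576 CPM elsewhere, and cluster 6 came next at 1070 CPM (979 to 1167). All other clusters held 594 to 735 CPM. Of the 19 immune-like cells of cluster 8, 78.9% had a Dpt UMI, the same share as the 78.9% of cluster 6. Median depths were 18212 UMIs in cluster 8 and 9886 in cluster 6, so the shares were not matched for depth. In CPM Dpt was lower in cluster 8 than in cluster 6, with intervals that did not overlap. Whether the Dpt UMIs of cluster 8 are background was not tested. Osr1, Tcf7l2 and Eln were also highest in cluster 6, at 8.34, 33.4 and 37.5 CPM, with intervals that overlapped those of other clusters as well.

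**Figure D4:**
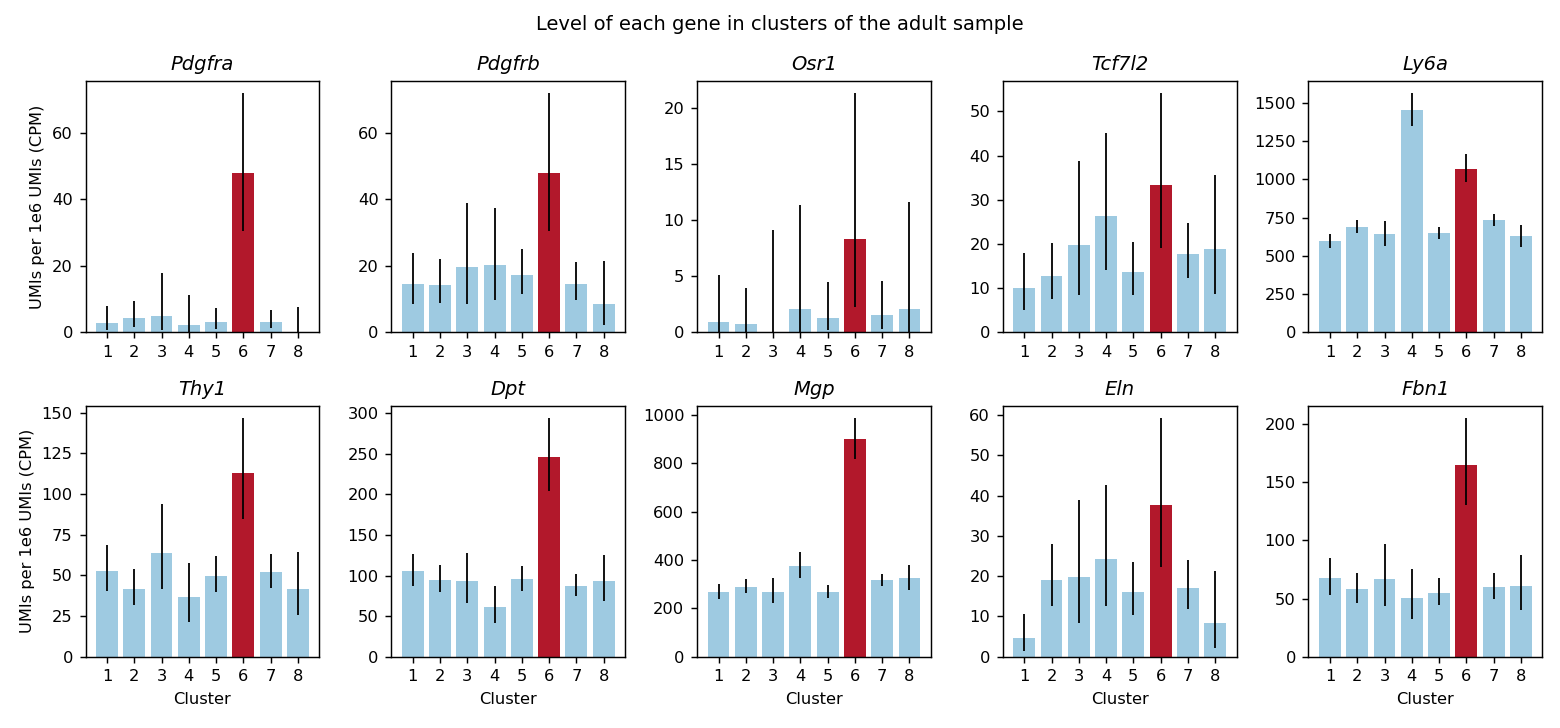
UMIs per 1e6 UMIs (CPM) of each gene in the 8 clusters of the adult sample, with 95% exact Poisson intervals as lines; red is the fibroblast-like cluster 6 and each panel has its own axis from 0. Pdgfra, Dpt, Mgp and Fbn1 are higher in cluster 6 than in each other cluster, while Ly6a is highest in cluster 4.

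Within the iPax3 sample the levels were set beside Myog, the regulator of muscle differentiation. Ly6a stood at 99.7 CPM in the 1517 cells with a Myog UMI and at 99.3 CPM in the 1414 cells without one, Tcf7l2 at 41.8 and 39.2 CPM, and Fbn1 at 12.5 and 12.7 CPM, with intervals that overlapped for each gene. Median depths were 13160 and 10724.5 UMIs. In the authors' deposited table of 7 iPax3 clusters, Myog had a scaled mean of 5.68 UMIs per cell in cluster 1, and Ly6a had 0.351 there and 0.515 to 1.65 in the other 6. The deposited table gave Tcf7l2 a scaled mean of 0.303 to 0.660 over these clusters. No SD or n belongs to these values.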

How the data were processed

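Bulk RNA was sequenced in 15 libraries and droplet single-cell RNA in 2 samples. The deposited bulk values are read counts per gene, made with CASAVA 1.8, HISAT2 2.0.2 and Subread featureCounts 1.4.6 on mm10, per the submitters' processing notes. The deposited single-cell matrices hold UMI counts per gene and barcode from Cell Ranger 2.2.0, per the same notes. The authors' deposited cluster tables give a signal (mean UMIs per cell, scaled), with log2 fold changes and p-values, which were not used. The annotation release, strand setting and handling of multiply mapped reads are not given in the sources used here. Symbols came from the single-cell gene table, which matched 28692 of 47728 gene identifiers, and GENCODE M21 supplied positions and exon lengths.

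Bulk counts were filtered with filterByExpr, scaled by TMM and fitted over all 15 libraries with edgeR 4.0.16 (R 4.3.3) by robust quasi-likelihood with Benjamini-Hochberg adjustment over 17571 genes. SE is the absolute log2 fold change over the square root of F. PSC-derived against tissue compares the mean of 2 groups with the mean of 3. Log2 CPM for correlations used a prior count of 2. A group at 0 was given a floor of 3 counts. The model was tested on simulated counts. DESeq2 1.42.0, RLE size factors, no filter, a replicate block and omission of each library were alternatives, and omission of the Neo libraries was added after seeing the data. A barcode counted as a cell if it held 500 UMIs or more, under 10% of them mitochondrial, and its total reached 10% of the percentile 99 of the 3000 largest barcodes. No doublet caller was run. Adult cells were clustered with scanpy 1.11.5 (2000 variable genes, 20 components, 15 neighbours, Leiden resolution 1), leaving out the 10 genes. Intervals are exact (Poisson, binomial or conditional) at 95%.

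The 10 genes and all gene lists were chosen with earlier results of these data known. All 10 genes are named in full. Of other lists, up to 4 genes with the smallest adjusted p are named, and genes outside that rule (Gsn in the fibroblast list; Ltbp1, Mfap5 and Fbn2 among elastic fibre genes where beyond the fourth) were named after their values were seen. For each of the 10, the 2 genes with the highest correlation are named.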

Additional observations from a re-analysis of the deposited data

How the results depend on the processing

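Of 460 refits of a gene in a comparison under another normalization, filter, model, block or tissue mean, 435 kept the call or its absence, 7 lost a call, 16 gained one and 2 changed sign. Of 1650 refits that left out 1 library, 1581 kept it, 52 lost a call and 17 gained one. The 2 changes of sign were Mgp in PSC-derived against tissue cells without Neo, at log2 1.10, and without Neo and iPax7 replicate 1, at 1.23. The cause was not tested.

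Between iPax7 and iPax3 the 1 call became 3 in DESeq2 and 0 with a replicate block, and from Fet to Neo it became 2 with RLE size factors and 3 in DESeq2. Replicate numbers did not pair the libraries: correlations of same-numbered deviations ran from -0.331 to 0.0767, and the block changed no other member count by over 1.5 times. The block also left the Thy1 difference between iPax3 and Fet at log2 -5.52 (adjusted p = 0.056); it was called without the block. Over omissions of 1 library the number of the 10 genes called ran from 5 to 8 for PSC-derived against tissue cells, 0 to 1 for iPax7 against iPax3, 5 to 7, 5 to 9 and 6 to 7 for iPax3 against Emb, Fet and Neo, 5 to 7, 4 to 5 and 6 to 7 for iPax7 against Emb, Fet and Neo, 5 to 6 from Emb to Fet, 0 to 2 from Fet to Neo and 6 to 6 from Emb to Neo.

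Calls over all genes moved more. Between iPax7 and iPax3, 13 genes became 252 in DESeq2, 22 without the filter and 7 with the replicate block. DESeq2 called 2773 genes in place of 1498 for iPax3 against Fet, 4003 in place of 2468 for iPax7 against Emb, 1732 in place of 650 for iPax7 against Fet, 2174 in place of 641 from Emb to Fet and 1678 in place of 416 from Fet to Neo. The replicate block gave 1517, 379 and 263 genes for iPax7 against Emb, Emb to Fet and Fet to Neo. Over omissions of 1 library, genes called ran from 3827 to 6782 (PSC-derived against tissue), 3 to 40 (iPax7 against iPax3), 1492 to 5060, 624 to 1968 and 2002 to 4836 (iPax3 against Emb, Fet and Neo), 1301 to 4810, 353 to 827 and 2047 to 4011 (iPax7 against the same), 233 to 2843 (Emb to Fet), 86 to 751 (Fet to Neo) and 2585 to 4834 (Emb to Neo).

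In single cells 1 gene, Tcf7l2, was higher in iPax3 cells under every cell filter tried. Under 5% mitochondrial UMIs its ratio to adult cells was 1.93 and that of Ly6a 0.199. Fet replicate 1, with 516504 counts, held 3 counts of Ly6a and 11 of Thy1, which limits their precision there.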
